A study of Mus musculus with 9 samples.

Results

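Myosin light chains are small proteins that wrap around the neck of the myosin heavy chain. Each myosin head carries an essential chain, which stiffens the neck, and a regulatory chain, whose phosphorylation by light chain kinases tunes or, in smooth muscle and non-muscle cells, switches on contraction. Different genes supply these chains to fast skeletal muscle, slow skeletal muscle and ventricle, atrium, and smooth muscle and non-muscle cells, so the set of light chains is often read as a mark of muscle type. The 9 genes described here are the regulatory chains Mylpf, Myl2, Myl7 and Myl9 and the essential chains Myl1, Myl3, Myl4, Myl6 and Myl6b. They were chosen by symbol, from the transcript clusters that the array annotation gives to a member's symbol alone, and are 9 of 19938 genes with such a cluster. A transcript cluster is a set of probes along a gene or a piece of it, and where a gene had several, as Myl6 did, the one with the highest mean over the beating and non-beating arrays was taken.

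RNA from cultured stromal vascular fraction (SVF) cells of mouse subcutaneous adipose tissue (strain C57BL6/J, age 10 weeks) was hybridised to Mouse Gene 1.0 ST arrays (Affymetrix), which hold probes along the exons of each gene. All cultures were kept in a minimal medium with serum, glutamine, antibiotics and a reducing agent, and no inducing factor was added. Each of the 4 beating samples held spontaneously beating colonies, picked by hand on day 28. Per the study's methods, the colonies of each sample were combined from dishes of a single SVF lot. The 4 non-beating samples held the cells left in the dish, a mixture that may include any cell the hand picking missed. The round pool was 1 array of 6 round cells, taken with an automated cell picker on day 14. Neither kind of day 28 sample was sorted by a marker, so both can hold several cell types, and the 6 round cells have no replicate. In such bulk samples a change in the share of a cell type and a change in RNA per cell cannot be told apart. Whether replicates stem from separate SVF lots is not given in the labels, and each p therefore measures only the variation among these arrays, which may be technical.

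Values are log2 signals as deposited, and the number of arrays limits their precision. Array medians lay between 3.08 and 3.17 on the 8 beating and non-beating arrays and at 3.54 on the round pool array, and replicates correlated at r of 0.975 to 0.989 among beating and 0.988 to 0.992 among non-beating arrays. Of 12 listed cardiac markers, not all of them restricted to cardiomyocytes, 1 (Myh6, the alpha cardiac heavy chain) was higher in the beating samples. The list leaves out Tnnt2, the cardiac troponin T, which embryonic skeletal muscle also uses and which was higher by 5.80 (limma adjusted p = 6.93e-06). It also leaves out Casq2 and Tecrl, which heart muscle expresses too, higher by 6.36 and 2.60 (limma adjusted p = 9e-08 and 0.00124). The count of 1 of 12 thus holds for the listed genes only, and heart genes off the list were not surveyed. The mean of the list lay between 3.09 and 3.34 on the beating and between 3.04 and 3.07 on the non-beating arrays, near the array medians. Of 13 skeletal muscle markers 11 were higher, with list means of 6.86 to 7.48 on the beating and 3.55 to 3.83 on the non-beating arrays. The labels name these samples only by whether they beat. Of other cell types, 2 of 12 macrophage, 3 of 8 adipocyte and 2 of 9 fibroblast markers were lower in the beating samples, 1 of 10 smooth muscle and pericyte markers (Smtn) was higher and 0 of 8 endothelial markers passed limma's test. At an unadjusted p under 0.05, 11 macrophage, 4 adipocyte, 6 fibroblast and 4 smooth muscle and pericyte markers were lower, 2 of the latter were higher, and 0 endothelial markers differed. Among all genes of 1 symbol, 2.84% were higher and 4.11% lower by the adjusted p. Their share at the unadjusted p was not determined, so the unadjusted counts have no rate beside them. The list medians were -1.91 for macrophage, -0.50 for adipocyte, -0.74 for fibroblast, -0.28 for smooth muscle and pericyte and -0.21 for endothelial markers. Without 1 array at a time, the adjusted calls ranged from 0 to 5 for macrophage, 1 to 4 for adipocyte and 1 to 3 for fibroblast markers; the macrophage count was 0 in 5 of these 8 fits, those without beating replicate 1, 2 or 3 or non-beating replicate 2 or 4. Their part in the light chain results was not tested.

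The promoters of 4 light chains are shown first, because these genes make contrasts that the report turns on. The fast chains Mylpf and Myl1 rose, and the atrial Myl7 and the ventricular and slow skeletal Myl3 did not pass the test. Each sequence is the 250 bases before an annotated transcription start, from RefSeq on build GRCm38.p6, read 5′ to 3′ on the gene's strand, and the annotation can give a gene other starts. The windows are chr7:127211358-127211607 on the plus strand for Mylpf, chr1:66945057-66945306 on the minus strand for Myl1, chr11:5898783-5899032 on the minus strand for Myl7 and chr9:110763428-110763677 on the plus strand for Myl3. Capitals mark matches, on either strand, to the E-box CANNTG bound by myogenic basic helix-loop-helix factors, the M-CAT element CATTCC bound by TEAD factors, and the CArG box bound by serum response factor.

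Mylpf: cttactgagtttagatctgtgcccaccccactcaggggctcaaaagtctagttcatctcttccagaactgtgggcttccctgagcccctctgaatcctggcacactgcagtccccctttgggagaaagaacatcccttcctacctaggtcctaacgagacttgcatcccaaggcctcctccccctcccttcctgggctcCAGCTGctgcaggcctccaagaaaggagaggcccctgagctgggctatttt
Myl1: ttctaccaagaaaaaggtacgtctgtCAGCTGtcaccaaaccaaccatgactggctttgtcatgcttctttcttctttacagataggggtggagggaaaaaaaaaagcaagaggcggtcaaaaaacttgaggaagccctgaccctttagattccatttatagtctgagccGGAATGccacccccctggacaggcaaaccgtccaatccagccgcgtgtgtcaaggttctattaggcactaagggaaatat
Myl7: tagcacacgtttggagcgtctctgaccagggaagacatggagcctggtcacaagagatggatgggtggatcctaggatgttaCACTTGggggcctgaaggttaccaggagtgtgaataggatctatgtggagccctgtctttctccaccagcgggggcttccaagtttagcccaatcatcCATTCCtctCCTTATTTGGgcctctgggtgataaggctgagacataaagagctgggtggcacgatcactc
Myl3: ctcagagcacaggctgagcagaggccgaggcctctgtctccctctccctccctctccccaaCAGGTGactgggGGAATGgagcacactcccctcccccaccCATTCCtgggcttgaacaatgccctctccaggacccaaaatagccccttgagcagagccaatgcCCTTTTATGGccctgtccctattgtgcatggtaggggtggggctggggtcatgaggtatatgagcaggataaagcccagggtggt

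Positions are counted from the start, with -1 the base just before it, and give the first base of a match. The Mylpf window held 1 E-box, at -51, and the Myl1 window an E-box at -224 and an M-CAT element at -80. The Myl7 window held an E-box at -168, an M-CAT element at -70 and a CArG box at -61. The Myl3 window held an E-box at -189, M-CAT elements at -177 and -149, and a CArG box at -85. Promoters were found for all 9 light chains, in 11 windows. An E-box stood in those of 4 of the 5 genes that rose in the beating samples and of 3 of the other 4, against 66.2% of all 32851 promoter windows of this length. A CArG box stood in none of the 5 and in all of the other 4 (Myl3, Myl6, Myl7 and Myl9), against 1.47% of all windows. Myl2 and Myl6 have 2 windows each and were counted if either held a match, whereas the shares are per window. For Myl6 the E-box stood only in window 1 and the CArG box only in window 2. An M-CAT element stood in that of Myl1 and in those of Myl3 and Myl7 (12.6% of all windows), and a MEF2 site, bound by the myocyte enhancer factors, in none of the 9 (2.92% of all windows). Both Myl2 windows lie at the upstream end of its annotated span, and whether its transcripts in these cells start there is not known. Without Myl2 an E-box stood in 3 of 4 and a CArG box in 0 of 4 of the genes that rose, and a MEF2 site in 0 of 8 light chains. A match describes letters in this window only and is not a measured binding site.

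Of the 9 light chains, 5 were higher in the beating samples (Myl1, Mylpf, Myl4, Myl2 and Myl6b), 1 was lower (Myl6) and 3 did not pass the test (Myl3, Myl7 and Myl9). The test was limma with Benjamini-Hochberg adjustment over all 33323 clusters at an adjusted p under 0.05, two-sided. Among all genes of 1 symbol, 2.84% were higher and 4.11% lower by it, and among all clusters 2.82% and 3.34%. Rises of at least 4 on the log2 scale were seen in 4 of the 9, against 0.286% of all genes, and the groups did not overlap in 6 of the 9, against 15.9% of all genes. The median difference was 2.67 over the members and -0.010 over all genes of 1 symbol. The chains of fast skeletal muscle, the atrial and embryonic Myl4, the ventricular and slow skeletal regulatory chain Myl2 and Myl6b rose. The atrial regulatory chain Myl7 stayed below the array medians in both groups. The ventricular and slow skeletal essential chain Myl3 lay near them on most arrays. The plot of the signals on each array shows the 5 genes whose beating points stand clear above the non-beating points.

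**Figure D1:**
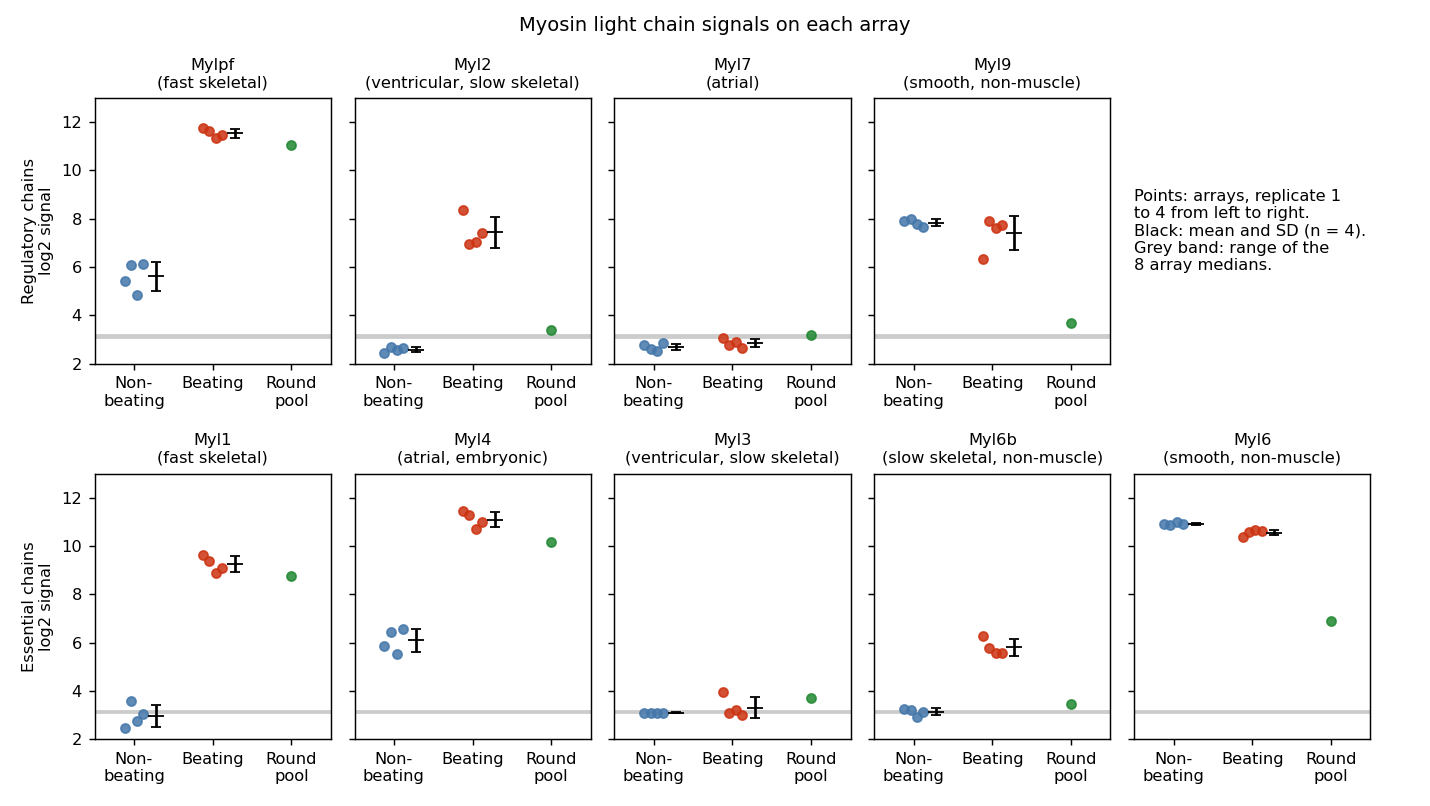
Log2 signal of each light chain (vertical axis) on the non-beating, beating and round pool arrays, with regulatory chains above and essential chains below. Points are arrays, black bars give means with SD over 4 arrays, and the grey band is the range of the medians of the 8 beating and non-beating arrays, 3.08 to 3.17. Mylpf, Myl2, Myl1, Myl4 and Myl6b are clear of the non-beating points in the beating samples. Myl7 lies below the band on the 8 beating and non-beating arrays, at 2.54 to 3.05. Myl3 lies close to the band apart from beating replicate 1 at 3.94 and the round pool at 3.71.

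Mylpf, the regulatory chain of fast skeletal muscle, had log2 signals of 5.42, 6.09, 4.84 and 6.12 in non-beating replicates 1 to 4 and of 11.75, 11.65, 11.33 and 11.45 in the beating replicates. All beating arrays lay far above all non-beating arrays, and the non-beating arrays themselves were above the array medians. Its difference was 5.93 (95% confidence interval 5.28 to 6.58, limma adjusted p = 1.42e-05), a 60.8-fold higher signal, and ranked 19 among the rises of all genes of 1 symbol.

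Myl2, the regulatory chain of ventricular and slow skeletal muscle, read 2.46, 2.70, 2.55 and 2.64 in the non-beating and 8.36, 6.93, 7.02 and 7.41 in the beating replicates. The groups did not overlap, and beating replicate 1 stood above the other beating arrays. The mean was 7.43 ± 0.65 against 2.59 ± 0.11 (SD, n = 4 each), a difference of 4.84 (95% confidence interval 4.18 to 5.51, limma adjusted p = 5.42e-05) and a 28.7-fold higher signal. Without beating replicate 1 the difference was 4.54. In the non-beating samples Myl2 was dimmer than the array medians, so this fold, as for Myl1 and Myl6b, compares signals with background in them rather than transcript amounts.

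Myl7, the atrial regulatory chain, read 2.77, 2.61, 2.54 and 2.85 in the non-beating and 3.05, 2.78, 2.89 and 2.67 in the beating replicates. Every one of these 8 values lay below the array medians, and the groups overlapped. The difference was 0.16 (95% confidence interval -0.08 to 0.40, limma adjusted p = 0.449). Myl9, the regulatory chain of smooth muscle and non-muscle cells, was bright in both groups, at 7.90, 7.99, 7.79 and 7.66 in the non-beating and 6.35, 7.92, 7.61 and 7.73 in the beating replicates. Beating replicate 1 alone fell far from the rest, and the other beating arrays lay among or close to the non-beating arrays. The difference was -0.43 (95% confidence interval -1.17 to 0.30, limma adjusted p = 0.507), and without beating replicate 1 it was -0.081 (adjusted p = 0.736).

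Myl1, the essential chain of fast skeletal muscle, read 2.48, 3.59, 2.77 and 3.04 in the non-beating and 9.65, 9.39, 8.89 and 9.09 in the beating replicates. The gap between the groups was many times the spread within either. Its difference was the largest among the light chains, at 6.28 (95% confidence interval 5.70 to 6.87, limma adjusted p = 5.96e-06), a 78.0-fold higher signal.

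Myl4, the essential chain of the atrium and of embryonic striated muscle, read 5.87, 6.44, 5.54 and 6.55 in the non-beating and 11.43, 11.27, 10.71 and 10.99 in the beating replicates. As for Mylpf, its non-beating arrays were already well above the array medians and did not overlap the beating arrays. The difference was 5.00 (95% confidence interval 4.41 to 5.58, limma adjusted p = 2.16e-05), a 32.0-fold higher signal. Within the non-beating group, replicates 2 and 4 were the higher and replicates 1 and 3 the lower arrays for Mylpf, Myl1 and Myl4 alike.

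Myl3, the essential chain of ventricular and slow skeletal muscle, read 3.11, 3.11, 3.09 and 3.08 in the non-beating and 3.94, 3.09, 3.21 and 3.02 in the beating replicates. Beating replicate 1 was higher than every other array, and the other 3 beating arrays lay within or next to the non-beating range. The difference was 0.21 (95% confidence interval -0.22 to 0.65, limma adjusted p = 0.597), and without beating replicate 1 it was 0.0047. Myl2 and Myl3, which pair on the same heavy chain in ventricular and slow skeletal muscle, thus did not rise together in these samples.

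Myl6b, an essential chain of slow skeletal muscle and non-muscle cells, read 3.24, 3.24, 2.94 and 3.14 in the non-beating and 6.30, 5.78, 5.59 and 5.57 in the beating replicates. All non-beating values were close to the array medians and all beating values well above them. Its difference of 2.67 (95% confidence interval 2.29 to 3.05, limma adjusted p = 6.82e-05) was the smallest of the 5 rises, a 6.37-fold higher signal.

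Myl6, the essential chain of smooth muscle and non-muscle cells and the neighbour of Myl6b in the annotation, moved the other way. It read 10.90, 10.89, 10.98 and 10.93 in the non-beating and 10.38, 10.59, 10.65 and 10.62 in the beating replicates, and all beating arrays lay below all non-beating arrays. The difference was -0.36 (95% confidence interval -0.53 to -0.20, limma adjusted p = 0.026), a 1.29-fold lower signal. All 6 clusters that the annotation gives to Myl6 passed as lower, with differences from -0.80 to -0.36 and adjusted p from 0.00651 to 0.026. The annotation does not say whether each cluster reads the gene itself or a near-identical copy, so they are not independent measurements. The adjusted p of the chosen cluster rose above the threshold in 5 of the 8 fits that left out 1 array. The plot of changes with their intervals places this small fall beside the large rises.

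**Figure D2:**
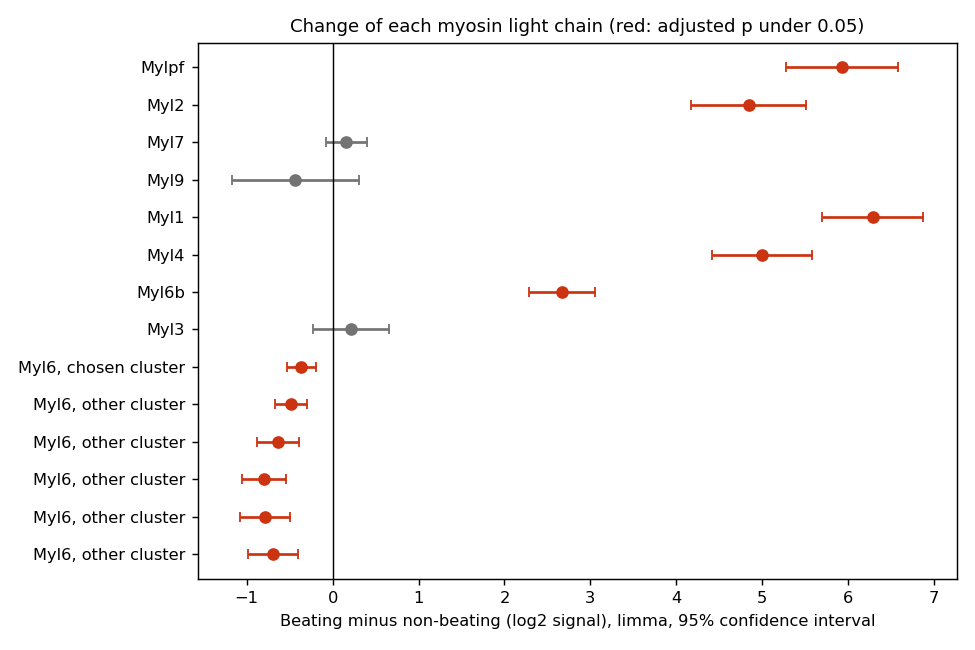
Difference between beating and non-beating samples for each light chain (horizontal axis, log2 signal) with its 95% confidence interval from limma, in red where the adjusted p was under 0.05. The 5 rises lie between 2.67 and 6.28, the intervals of Myl7, Myl9 and Myl3 include 0, and all 6 clusters of Myl6 lie between -0.80 and -0.36.

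Beating replicate 1 was the highest of the 4 beating arrays for 7 of the light chains and the lowest for the other 2, Myl6 and Myl9; over all genes of 1 symbol it was the highest for 36.9% and the lowest for 27.9%. On the same array the skeletal muscle and cardiac marker means were the highest of the 4, at 7.48 and 3.34. The smooth muscle, macrophage, fibroblast and endothelial marker means were the lowest, at 5.61, 3.37, 7.18 and 3.71. The adipocyte marker mean was neither, at 4.25 on this array within a beating range of 4.02 to 4.38. Without this array, the same 5 light chains were still higher.

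To contrast forms of the same kind of chain, the difference between the log2 signals of a pair of chains was taken on each array and compared between the groups, which asks whether one chain changed more than the other and sets no level of one gene against another. For 6 pairs, an exact two-sided permutation test over the 70 splits was used, in which the smallest possible p is 0.0286, with adjustment over the 6 pairs. The ventricular and slow skeletal Myl2 rose by 4.69 more than the atrial Myl7 (exact p = 0.0286, adjusted p = 0.0343). Among the essential chains, Myl3, also ventricular and slow skeletal, changed less than the atrial and embryonic Myl4. Its relative change was -4.78 (exact permutation, adjusted p = 0.0343). Thus the ventricular and slow skeletal form changed more among the regulatory chains and the atrial and embryonic form among the essential chains. Since Myl2 and Myl3 also belong to slow skeletal muscle, and Myl4 to embryonic striated muscle, these pairs do not name a heart chamber. Myl7 lay below the array medians in both groups and Myl3 near them on most arrays. Background can hide changes in such dim signals, so these pairs compare signals and not transcript amounts.

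The fast chains changed more than the smooth muscle and non-muscle chains, by 6.36 for Mylpf relative to Myl9 and by 6.65 for Myl1 relative to Myl6 (exact permutation, adjusted p = 0.0343 each). Myl1 changed by 6.07 more than Myl3 (exact permutation, adjusted p = 0.0343). Mylpf changed by 1.08 more than Myl2, which did not pass (exact permutation, adjusted p = 0.0571). In that pair beating replicate 1, the array with the highest Myl2, lay within the non-beating range. Without that array the relative change was 1.32 (exact permutation, adjusted p = 0.0286, the smallest possible in that fit). It did not pass in any other fit that left out 1 array (adjusted p from 0.0571 to 0.1143). Myl2 was below the array medians in the non-beating samples and Mylpf above them. Background may have lowered the measured change of Myl2, which was not tested. This comparison of signals therefore cannot tell which chain's transcripts changed more. The plot of paired differences shows this overlap for Mylpf and Myl2 and no overlap for the other 5 pairs.

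**Figure D3:**
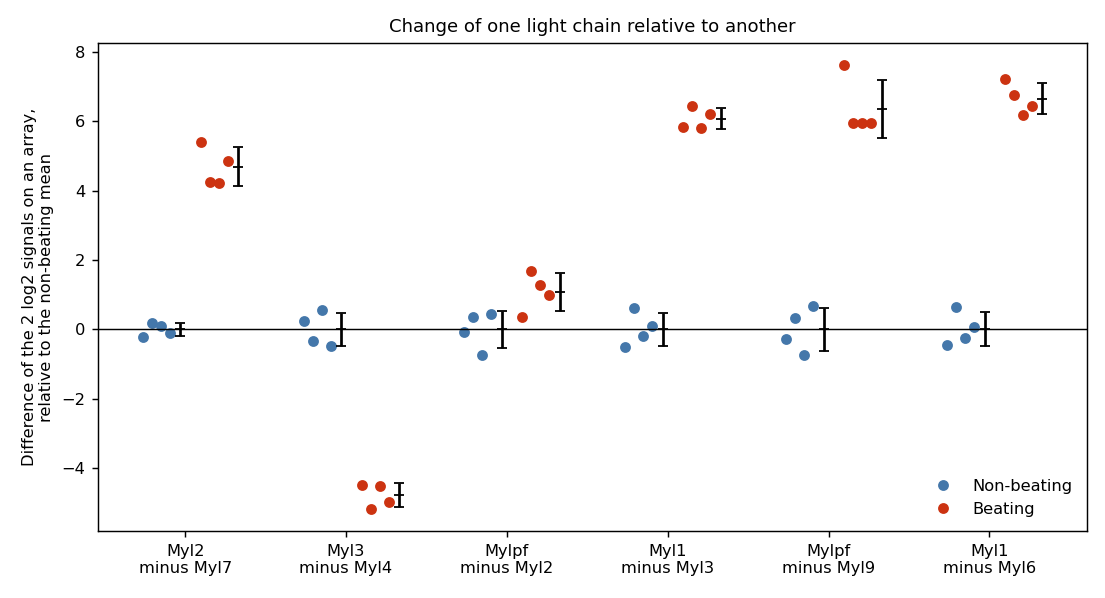
Difference between the log2 signals of the named pair of light chains on each array (vertical axis), set relative to its non-beating mean, for 4 non-beating and 4 beating arrays, with mean and SD in black. Beating arrays sit above non-beating arrays in 4 pairs, below them for Myl3 minus Myl4 (mean -4.78), and overlap them for Mylpf minus Myl2 (mean 1.08).

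Light chains work only on heavy chains, so the heavy chains and the proteins that modify light chains are given beside them. Of 10 striated muscle heavy chains 8 were higher in the beating samples and none lower, with a median difference of 3.89. The embryonic skeletal Myh3 rose by 6.83 (limma adjusted p = 1.73e-08), the fast Myh1 by 6.60 (adjusted p = 3.66e-07), the perinatal Myh8 by 5.93 (adjusted p = 1.37e-06) and the fast Myh4 by 4.75 (adjusted p = 0.000217). The fast Myh2 rose by 3.98 and Myh7, the heavy chain of slow skeletal muscle and ventricle, by 3.80 (limma adjusted p = 3.78e-05 and 4.81e-05). Myh7, like Myl2, was high in all 4 beating samples, but its order among them differed, as beating replicate 1 had the lowest Myh7, at 6.19 against 6.48 to 7.23, and the highest Myh4, at 9.06 against 7.18 to 7.66.

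The alpha cardiac Myh6 was higher by 0.41 (limma adjusted p = 0.0131) at 2.68 to 2.90 in the beating samples, below the array medians, and Myh7b was higher by 0.43 (adjusted p = 0.028). The Myh7b call was lost in 6 of 8 fits that left out 1 array, and Myh13 and Myh15 did not pass (0.097 and 0.10, limma adjusted p = 0.455 and 0.579). Of 4 smooth muscle and non-muscle heavy chains, the non-muscle Myh10 was lower (-0.57, limma adjusted p = 0.0272, lost in 5 of 8 such fits), and Myh9 (-0.47, adjusted p = 0.485), Myh11 (-0.43, adjusted p = 0.375) and Myh14 (0.16, adjusted p = 0.546) did not pass. Of 4 further genes named for light chains, Myl12b, a non-muscle regulatory chain, was lower (-0.37, limma adjusted p = 0.0387, lost in 6 of 8 such fits and with quantile normalization). Its close paralog Myl12a had a mean of 10.07 ± 0.29 when beating and 9.62 ± 0.16 when not (SD, n = 4 each) and did not pass (limma adjusted p = 0.131). Probes for such close paralogs may read each other's transcripts. Myl10 and Mylip, a ubiquitin ligase, did not pass either.

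Of 15 measured light chain kinases and their activators, 3 were higher and none lower, with a median difference of 0.053. Mylk4, a striated muscle member of the myosin light chain kinase family, had a mean of 8.40 ± 0.26 when beating against 2.62 ± 0.28 when not (SD, n = 4 each, limma adjusted p = 1.05e-06). Dapk2 and Stk17b, kinases of the death-associated family, rose by 1.58 and 1.02 (limma adjusted p = 0.0101 and 0.0033). The better known kinases did not pass, with differences of 0.053 for the smooth muscle Mylk, 0.22 for the skeletal Mylk2 and 0.070 for the cardiac Mylk3 (limma adjusted p = 0.801, 0.256 and 0.778), which were named after their values were seen. Calm2, which encodes the calmodulin that activates these kinases, differed by -0.071, and Rhoa and Rock1, which act on light chain phosphorylation in smooth muscle and non-muscle cells, by -0.35 and -0.061 (limma adjusted p = 0.462, 0.168 and 0.826). Of 10 genes of the light chain phosphatase and its inhibitors 1 passed, the inhibitor Ppp1r14c, higher by 0.75 (limma adjusted p = 0.03). That call was lost in 5 of the 8 fits that left out 1 array, the fit without beating replicate 1 included. The catalytic Ppp1cb and Ppp1cc differed by -0.023 and -0.15 and the targeting subunit Ppp1r12a by -0.095 (limma adjusted p = 0.892, 0.221 and 0.736).

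Of 12 measured myosin-binding and myosin-folding proteins 7 were higher and none lower, with a median difference of 1.59. The skeletal myosin-binding proteins Mybpc1 and Mybph rose by 5.57 and 4.02, and the M-band proteins Myom1 and Myom2 by 3.53 and 2.68 (limma adjusted p = 4.59e-06, 5.44e-05, 7.03e-05 and 0.000203). Smyd1, a methyltransferase that acts in the assembly of myosin into sarcomeres, rose from 2.74 ± 0.18 to 5.24 ± 0.33 (SD, n = 4 each, limma adjusted p = 0.000115). The cardiac myosin-binding protein Mybpc3 differed by 0.083 (limma adjusted p = 0.751) and the muscle chaperone Unc45b by 0.56 (adjusted p = 0.0671). The general chaperones Hsp90aa1 and Unc45a differed by -0.040 and 0.094 (limma adjusted p = 0.709 and 0.649). The plot of partners and regulators sets these groups side by side.

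**Figure D4:**
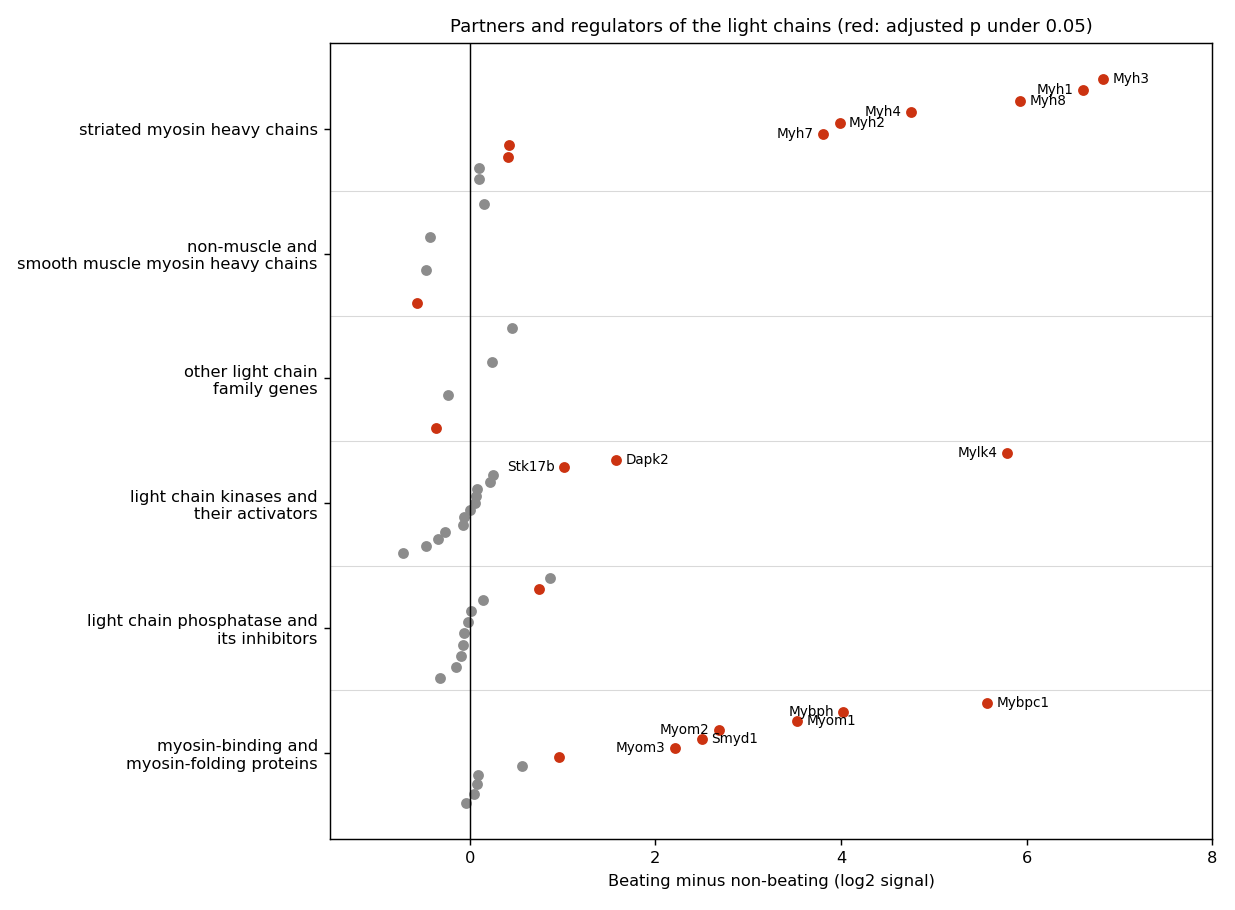
Difference between beating and non-beating samples (horizontal axis, log2 signal) for each measured heavy chain, further light chain gene, kinase, phosphatase and myosin-binding gene, in red where the limma adjusted p was under 0.05. Striated heavy chains reach 6.83 and myosin-binding proteins 5.57, and among the kinases Mylk4 stands far to the right of the rest, whose median is 0.053 with it included.

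In the round pool, light chains differed in how far they lay from the other groups. Mylpf read 11.04, Myl4 10.17 and Myl1 8.75, which differed from the non-beating means by 5.43, 4.06 and 5.78 and from the beating means by -0.50, -0.94 and -0.50. Myl2 and Myl6b, which rose in the beating samples, read 3.39 and 3.45 in the round pool. They lay 0.80 and 0.31 above the non-beating means, and -4.04 and -2.36 from the beating means, below every beating array. The share of all genes that lay as far below their beating means was not determined. Genes that did not pass the test between the groups varied too, with Rock1 at -4.47, Rhoa at -4.44 and Ppp1ca at -0.48 from their beating means. Myl7 at 3.17 and Myl3 at 3.71 were 0.48 and 0.61 above the non-beating means. With the arrays centred or quantile normalized, Myl2 lay 0.35 or 0.31 and Myl3 0.16 or 0.23 above the non-beating means. With another scaling the sign turned for Myl6b and Myl7 against the non-beating and for Myl1 and Myl7 against the beating mean.

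Myl6 read 6.89 and Myl9 3.70, lower than on any of the 8 other arrays and -4.03 and -4.13 from the non-beating means. The 6 clusters of Myl6 lay between -4.38 and -4.03 from theirs. In all, 7 of the 9 light chains were above all 4 non-beating arrays, and 52.5% of all genes of 1 symbol were; no test compared these shares. The round pool array differed from the others across genes: with genes split by mean level into 4 equal parts, its median difference from the non-beating mean was 0.41, 0.57, -0.038 and -1.58, from the dimmest to the brightest. Of 1858 genes of 1 symbol with a mean of at least 7, 36.9% lay 3 or more below the non-beating mean, against 4.9% of all genes, and 17.9% lay 4 or more below it, as Myl6 and Myl9 did. The non-muscle Myl12b was at 9.78, -0.11 from its non-beating mean, and Myl12a at 10.72. With 1 array there is no test of any of these differences.

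Among the heavy chains, Myh3, Myh1 and Myh8 were above the non-beating means by 7.57, 7.70 and 5.97 in the round pool, Myh4, Myh2 and Myh7 by 3.11, 2.39 and 1.95. The kinase Mylk4 read 5.56 there, between the groups. The plot of the round pool against the beating samples places Mylpf, Myl1 and Myl4 near the line of equal difference and Myl2 and Myl6b far below it.

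**Figure D5:**
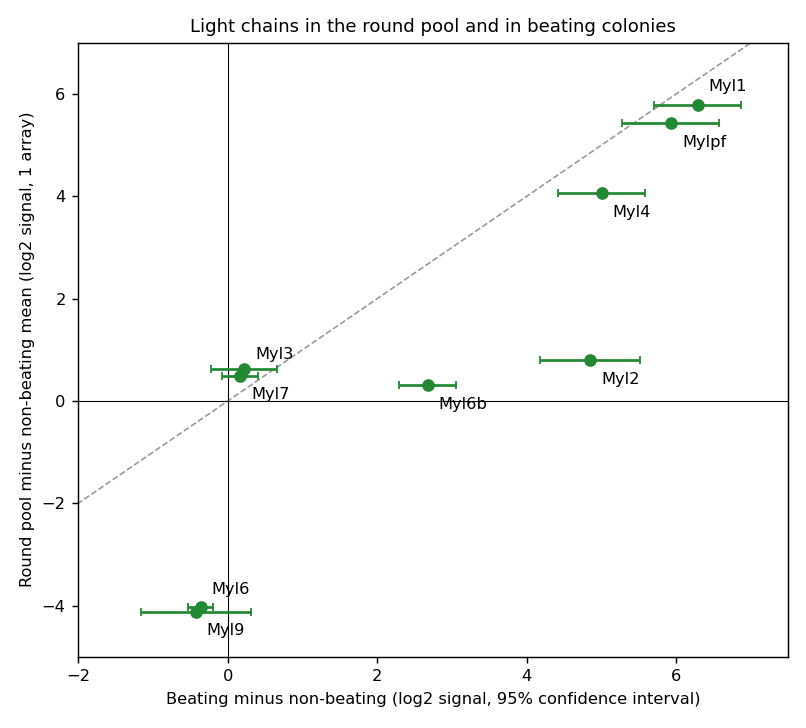
Difference of each light chain from its non-beating mean in the round pool (vertical axis, 1 array) and in the beating samples (horizontal axis, 4 arrays, with the 95% confidence interval from limma), both in log2 signal, with the line of equal difference dashed. Both axes share the non-beating samples. Mylpf, Myl1 and Myl4 lie near the line at 4.06 to 5.78 on the vertical axis, Myl2 and Myl6b at 0.80 and 0.31, and Myl6 and Myl9 at -4.03 and -4.13.

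For each light chain that passed the test, the 3 genes with the most similar pattern were sought over all 9 arrays, by the root mean square difference of log2 signals after each gene was set relative to its own non-beating mean. Nearest to Myl1 were Myh8 (0.34), Mylpf (0.39) and Casq2 (0.43), and nearest to Mylpf were Myh8 (0.29), the cardiac and embryonic skeletal troponin Tnnt2 (0.32) and Chrna1 (0.34). Nearest to Myl4 were the fast troponins Tnni2 (0.24) and Tnnc2 (0.29) and Bex1 (0.39). Myl2 had a different set, Tmem182 (0.49), the slow skeletal troponin Tnni1 (0.73) and Mymk (0.75), at larger distances than the others. Myl6b was nearest to Cst6 (0.22), Trim55 (0.27) and Tecrl (0.28), and Myl6 to Tmem59 (0.067), Arhgap35 (0.094) and Ssr3 (0.10). These distances cover 9 arrays of 3 kinds and describe likeness of pattern only.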

How the data were processed

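Total RNA was amplified, labelled with biotin and hybridised to arrays. Raw data were, per the study's methods, imported into BRB-ArrayTools, log2-scaled and mean-centred after normalisation; how the authors summarised probes into the deposited log2 values is not given in the sources used here. The deposited values of 33323 clusters (21789 with 1 symbol, 1621 with several, 9913 with none) were used without rescaling. The beating group was set against the non-beating group in limma 3.58.1 (R 4.3.3), after the fit was tested on simulated data. The test was a two-sided moderated test with Benjamini-Hochberg adjustment over all clusters. Pairs were compared by an exact permutation test that listed all splits, in Python 3.11.15 with NumPy 2.4.6. The round pool has no test. Alternatives were another scaling, filters, variance models, array weights, the methods' two-sample test, a replicate block and leaving out each array.

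The members and gene lists were chosen with earlier results of these data known. Named genes were all members, all heavy chains, up to 5 called genes of each other partner list with the largest difference, up to 3 not called with the highest mean, and the 3 genes nearest in pattern to each called member; Mybpc3 and the 3 Mylk genes were added after their values were seen. Per the study's methods, non-beating cells came from the dishes that gave beating colonies, but the labels do not say which replicate numbers share dishes. Same-numbered samples did not deviate together (correlations of -0.012, 0.028, -0.0094 and 0.020). These correlations cannot show that the samples are unpaired. The main test did not treat replicate numbers as pairs, and the replicate block was the alternative that did. Clusters with several symbols or none were not used for members or lists, and promoter sequences are those of RefSeq on GRCm38.p6.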

Additional observations from a re-analysis of the deposited data

How the results depend on the processing

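The rises of Myl1, Mylpf, Myl4, Myl2 and Myl6b passed under all 17 alternatives. The chosen Myl6 cluster, at -0.36, did not pass with the methods' two-sample test (adjusted p = 0.0502). It did not pass with the replicate number as a block either (adjusted p = 0.0649, also -0.36), and ranged from -0.40 to -0.31 without 1 array. Of the 6 Myl6 clusters, 4 passed as lower with the methods' test and 4 with the block. The block changed no other light chain's call. Over all clusters the counts were 940 higher and 1114 lower, against 491 and 375 with the methods' test adjusted, 637 and 645 with the replicate block, and 569 to 914 and 438 to 1023 without 1 array. The relative change of Mylpf and Myl2 ranged from 0.84 to 1.32 without 1 array, and passed only in the fit without beating replicate 1. In the round pool, 6 of 36 values changed sign: Myl6b lay -0.14 (median centring) and -0.17 (quantile normalization) from non-beating, Myl7 -0.036 (quantile) from non-beating and -0.072 (centring) and -0.14 (quantile) from beating, and Myl1 0.12 (quantile) from beating; the cause was not tested. Myl6 and Myl7 under the 1.5-fold prefilter and Myl3 and Myl7 under the dim filter were left out and gave no value.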
